A study of Mus musculus with 8 samples.

Results

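The genes described here carry the insulin signal to the glucose transporters of muscle. There were 10 of them, chosen by name (Insr, Irs1, Irs2, Pik3r1, Akt1, Akt2, Tbc1d1, Tbc1d4, Slc2a4 and Slc2a1), out of 19938 genes measured, and all 10 were found. Among probe sets annotated to exactly 1 gene symbol, the brightest on average over the 8 arrays stood for its gene. None of the 10 genes, and 0 of the 76 other pathway genes described below, lies in the chromosome segments that the model animals carry in 3 copies.

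The 4 model animals were male Ts65Dn mice, a Down syndrome model with an extra marker chromosome that holds parts of chromosomes 16 and 17. The 4 controls were male wild-type mice of the same colony (WT), labelled B6EiC3SnF1/J, a mix of B6 and C3H. All mice were 5 months old, and their soleus, a calf muscle rich in slow fibres, was taken in the basal state under pentobarbital anaesthesia. Each mouse gave 1 microarray, and all values are log2 RMA values as the authors deposited them, so that a difference of 1 is a doubling of the signal.

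Insulin binds the receptor Insr at the fibre surface, and the receptor phosphorylates the docking proteins Irs1 and Irs2. These recruit phosphatidylinositol 3-kinase, whose regulatory subunit is encoded by Pik3r1, and the lipid it makes activates the kinases Akt1 and Akt2. Akt2 phosphorylates the Rab GTPase-activating proteins Tbc1d4 and Tbc1d1, which then no longer hold back vesicles carrying the insulin-responsive transporter GLUT4, the product of Slc2a4. Contraction reaches the same proteins, Tbc1d1 in particular, through the energy sensor AMPK. The transporter GLUT1, encoded by Slc2a1, supplies basal uptake and is also abundant in the vessels and sheaths of nerve.

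The labels and the tissue were checked first. App, a gene of the triplicated part of chromosome 16, had 8.48, 8.43, 8.09 and 8.59 in Ts65Dn arrays 1 to 4 against 7.48, 7.18, 6.43 and 7.27 in WT arrays 1 to 4. All 8 muscle fibre markers lay above the median level of all genes, and the sum of their linear signals was 24343 to 26494 in Ts65Dn and 24083 to 25368 in WT, so that the groups overlapped. The array medians did not overlap, at 4.26 ± 0.02 in Ts65Dn and 4.46 ± 0.09 in WT (SD, n = 4 each), and neither did the interquartile ranges, at 3.05 ± 0.05 in Ts65Dn and 2.80 ± 0.15 in WT (exact two-sided permutation p = 0.0286 for each, the smallest that 4 against 4 can give). WT arrays 2 and 3 had the narrowest interquartile ranges, 2.74 and 2.62. Values are therefore also given relative to the 100 genes nearest in mean level in each array, called level-matched values, and without WT arrays 2 and 3.

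Of the 10 genes, 2 rose in Ts65Dn soleus, the docking protein gene Irs1 and the Rab GTPase-activating protein gene Tbc1d1, each to about double its WT signal (2.05-fold and 1.93-fold). For Irs1 that size was fitted for the brighter of its probe sets only. The dimmer one gave a log2 fold change of 0.48, with groups that overlapped. In whole muscle, a change in the number of cells of a type and a change in RNA per cell cannot be told apart. The limma p-values of Irs1 and Tbc1d1, adjusted by Benjamini-Hochberg over all 19938 genes, were 0.0475 and 0.0456, and the threshold was 0.05. That threshold called 2.32% of all genes higher and 2.94% lower, and 4.26% and 2.54% of genes above the median level. It called 0 of the 10 lower. At an unadjusted p under 0.05, 4 of the 10 were higher and 0 lower. The shares at that p were 12.3% and 22.6% of all genes, and 22.4% and 15.3% of genes above the median level. The smallest adjusted p among all genes was 0.0449, so that both calls lay close to the threshold. The log2 fold change was positive for 8 of the 10 genes, against 39.2% of all genes and 60.7% of genes above the median level, where all 10 lie. The median log2 fold change over the 10 was 0.43, beside -0.10 over all genes and 0.11 over genes above the median level. Level-matched, the median over the 10 was 0.26, beside 0.016 over genes above the median level. Without WT arrays 2 and 3 it was 0.17, beside 0.027.

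**Figure D1:**
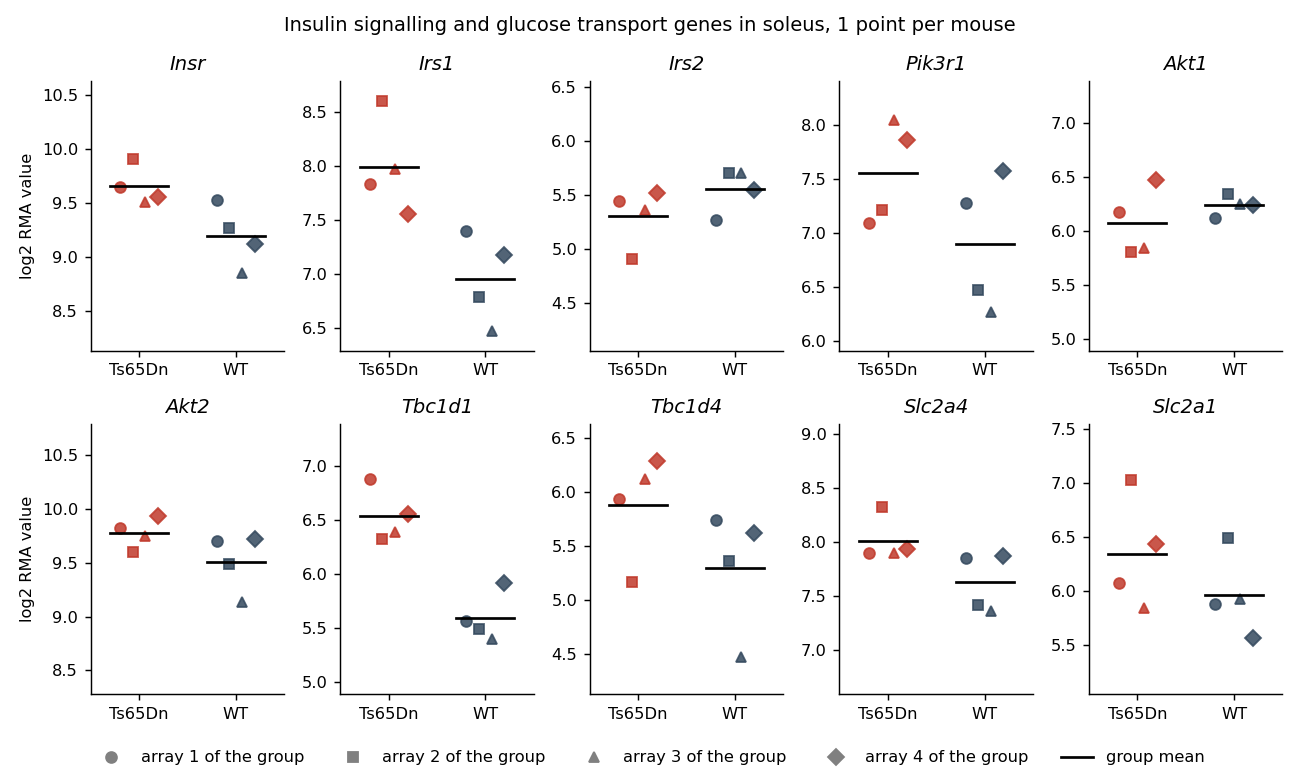
Log2 RMA value of each of the 10 genes (vertical axis, the same span in every panel) in the 4 Ts65Dn arrays (left, red) and the 4 WT arrays (right, dark), with marker shapes for the array number within its group and a black line at the group mean. The Ts65Dn points of Tbc1d1, between 6.33 and 6.88, all lie above the WT points, between 5.40 and 5.92, and WT array 3 (triangle) is the lowest WT point for 7 of the 10 genes.

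Insr, the receptor itself, had 9.64, 9.91, 9.51 and 9.56 in Ts65Dn arrays 1 to 4, against 9.53, 9.27, 8.85 and 9.12 in WT arrays 1 to 4. Ts65Dn arrays 1, 2 and 4 lay above every WT array, and Ts65Dn array 3 lay just under WT array 1. This gave a log2 fold change of 0.46 ± 0.16 (SE, n = 4 each; limma adjusted p = 0.0808, unadjusted p = 0.0151), which did not pass. A second, dimmer probe set of Insr gave 0.51. The level-matched value was 0.31, and it was 0.33 without WT arrays 2 and 3. Without WT array 1 the log2 fold change was 0.58 and the gene was called (limma adjusted p = 0.0418). Without any other single array it was not called, with limma adjusted p-values from 0.107 to 0.176.

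Irs1, the docking protein that couples the receptor to phosphatidylinositol 3-kinase in muscle, had 7.83, 8.60, 7.97 and 7.55 in Ts65Dn arrays 1 to 4. In WT arrays 1 to 4 it had 7.40, 6.78, 6.47 and 7.17. Every Ts65Dn array was above every WT array, with a gap of 0.154 between Ts65Dn array 4 and WT array 1. On the log2 scale the fold change was 1.03 ± 0.25 (SE, n = 4 each), with a 95% interval of 0.48 to 1.58. It was 0.70 with level matching (limma adjusted p = 0.116) and 0.70 without WT arrays 2 and 3 (limma adjusted p = 0.247).

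Irs1 has another, dimmer probe set on the array, which the platform annotation ties to the reference messenger RNA, whereas it ties the brighter one to a single GenBank record. The dimmer one had 5.69, 6.30, 5.93 and 5.84 in Ts65Dn and 5.91, 5.44, 5.33 and 5.18 in WT, again for arrays 1 to 4 of each group. Its groups overlapped through WT array 1. Its log2 fold change was 0.48 ± 0.19 (SE, n = 4 each, limma unadjusted p = 0.0340, limma adjusted p over all probe sets = 0.150). The mean of both probe sets gave 0.76 (limma adjusted p = 0.0526). The direction was therefore shared by the probe sets of Irs1. Their fitted sizes differed, and that difference was not tested.

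Irs2, the second docking protein, had 5.45, 4.91, 5.36 and 5.52 in Ts65Dn arrays 1 to 4 and 5.27, 5.70, 5.70 and 5.55 in WT arrays 1 to 4. The groups overlapped, and only Ts65Dn array 2 lay below all WT arrays. Its log2 fold change was -0.25 ± 0.16 (SE, n = 4 each; limma adjusted p = 0.290), with a 95% interval of -0.60 to 0.11. It was -0.20 level-matched and -0.11 without Ts65Dn array 2. With median centring it was -0.043, and without WT arrays 2 and 3 it was -0.098.

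The sequences before the start sites of Irs1 and Tbc1d1 are shown because these were the genes called, and that of Irs2 because it is the paralogue of Irs1. Each run is the 250 bases before a RefSeq start site (build GRCm38.p6), read 5′ to 3′ on the gene's strand. RefSeq windows were matched by symbol for 8 of the 10 genes, Insr and Slc2a4 being the others. Capitals mark the letters CANNTG (an E-box, the site of basic helix-loop-helix factors) and GGGCGG (the core site of Sp1), found on either strand.
Irs1 (chr1:82291440-82291689, minus strand): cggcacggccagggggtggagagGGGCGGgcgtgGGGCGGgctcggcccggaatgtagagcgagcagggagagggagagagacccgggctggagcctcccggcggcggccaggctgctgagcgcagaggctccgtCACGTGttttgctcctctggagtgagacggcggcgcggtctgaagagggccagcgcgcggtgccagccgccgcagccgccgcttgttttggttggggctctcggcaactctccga
Irs2 (chr8:11008930-11009179, minus strand): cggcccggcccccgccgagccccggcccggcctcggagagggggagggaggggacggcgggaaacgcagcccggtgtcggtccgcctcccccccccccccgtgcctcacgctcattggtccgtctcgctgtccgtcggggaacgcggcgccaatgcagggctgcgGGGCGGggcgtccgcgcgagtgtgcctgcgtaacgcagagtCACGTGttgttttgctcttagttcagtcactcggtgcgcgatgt
Tbc1d1, upstream start (chr5:64160010-64160259, plus strand): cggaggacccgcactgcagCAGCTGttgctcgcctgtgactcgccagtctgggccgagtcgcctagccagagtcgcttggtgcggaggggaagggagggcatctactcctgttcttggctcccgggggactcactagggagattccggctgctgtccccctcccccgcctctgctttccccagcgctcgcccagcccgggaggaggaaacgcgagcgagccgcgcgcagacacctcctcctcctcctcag
Tbc1d1, downstream start (chr5:64230107-64230356, plus strand): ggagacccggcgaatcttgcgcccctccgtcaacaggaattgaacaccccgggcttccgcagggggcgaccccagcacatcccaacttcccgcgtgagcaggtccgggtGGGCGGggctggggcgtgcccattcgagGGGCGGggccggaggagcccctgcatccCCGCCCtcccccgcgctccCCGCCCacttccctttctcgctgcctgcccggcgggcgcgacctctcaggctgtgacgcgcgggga

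The Irs1 and Irs2 windows each hold 1 CANNTG match, which in both is CACGTG, the palindromic E-box bound by the clock factors and by USF. CACGTG occurs in 6.02% of the 32851 promoter windows of that length, and CANNTG, which includes it, in 66.2%. GGGCGG occurs 2 times before Irs1, 1 time before Irs2, 4 times before the downstream start of Tbc1d1 and 0 times before its upstream start, and 32.7% of all windows hold it. The upstream Tbc1d1 window holds 1 CANNTG match and the downstream one 0. The FoxO letters GTAAACA, present in 3.17% of all windows, and the cAMP response element TGACGTCA, present in 1.55%, were found in 0 of these 4 windows. Over all 14 windows of the 8 matched genes, GTAAACA was found in 1, before a start of Akt1, and TGACGTCA in 0. G and C made up 72.4% of the Irs1 window, 72.8% of the Irs2 window, and 68.4% and 73.6% of the Tbc1d1 windows, where the median over all windows was 52.4%. These are matches of letters, and binding was not measured.

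Pik3r1, the regulatory subunit of phosphatidylinositol 3-kinase, had 7.09, 7.21, 8.05 and 7.86 in Ts65Dn arrays 1 to 4, against 7.27, 6.47, 6.26 and 7.57 in WT arrays 1 to 4. The groups overlapped, and the high values were those of Ts65Dn arrays 3 and 4. Between the groups the log2 fold change was 0.66 ± 0.31 (SE, n = 4 each; limma adjusted p = 0.158). It was 0.40 level-matched and 0.13 without WT arrays 2 and 3.

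Akt1, the widely expressed Akt kinase, had 6.18, 5.80, 5.84 and 6.48 in Ts65Dn arrays 1 to 4, against 6.12, 6.35, 6.25 and 6.24 in WT arrays 1 to 4. Ts65Dn array 4 was the highest of all 8 arrays and Ts65Dn array 2 the lowest, so that the Ts65Dn range of 0.674 enclosed the WT range of 0.224. The log2 fold change was -0.17 ± 0.16 (SE, n = 4 each; limma adjusted p = 0.461), and its sign turned with each array centred on its median (0.037). It was -0.33 level-matched, -0.40 with quantile normalization and -0.11 without WT arrays 2 and 3. Without single arrays it ran from -0.30 (without Ts65Dn array 4) to -0.075 (without Ts65Dn array 2).

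Akt2, the Akt kinase that acts on glucose transport in muscle, had 9.82, 9.59, 9.75 and 9.93 in Ts65Dn arrays 1 to 4. In WT arrays 1 to 4 it had 9.70, 9.49, 9.13 and 9.72. The groups overlapped through Ts65Dn array 2, and WT array 3 was the lowest. The log2 fold change was 0.27 ± 0.15 (SE, n = 4 each; limma adjusted p = 0.229), and a second probe set gave 0.23. It was 0.10 level-matched and 0.066 without WT arrays 2 and 3.

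Tbc1d1, the Rab GTPase-activating protein on which insulin and AMPK signals meet, had 6.88, 6.33, 6.39 and 6.56 in Ts65Dn arrays 1 to 4. In WT arrays 1 to 4 it had 5.57, 5.49, 5.40 and 5.92. The groups did not overlap and stood 0.409 apart, the widest gap among the 10 genes. A log2 fold change of 0.95 ± 0.16 (SE, n = 4 each) was fitted, with a 95% interval of 0.59 to 1.30 and the smallest unadjusted p of the 10 (limma, 0.00012). The level-matched value was 0.80 (limma adjusted p = 0.0501), and the value without WT arrays 2 and 3 was also 0.80 (limma adjusted p = 0.193).

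Tbc1d4, the main Akt substrate on the way to GLUT4 and also called AS160, had 5.94, 5.16, 6.12 and 6.28 in Ts65Dn arrays 1 to 4. In WT arrays 1 to 4 it had 5.74, 5.36, 4.47 and 5.62. Ts65Dn arrays 1, 3 and 4 lay above all WT arrays, while Ts65Dn array 2 lay below 3 of them. The log2 fold change was 0.58 ± 0.30 (SE, n = 4 each, limma adjusted p = 0.191). It was 0.55 level-matched and 0.20 without WT arrays 2 and 3.

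Slc2a4, which encodes GLUT4, had 7.89, 8.32, 7.90 and 7.93 in Ts65Dn arrays 1 to 4, against 7.85, 7.41, 7.36 and 7.87 in WT arrays 1 to 4. The groups did not overlap, but Ts65Dn array 1 stood only 0.022 above WT array 4. The log2 fold change was 0.39 ± 0.16 (SE, n = 4 each; limma adjusted p = 0.122, unadjusted p = 0.0369), with a 95% interval of 0.03 to 0.75. It was 0.051 level-matched and 0.15 without WT arrays 2 and 3.

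Slc2a1, which encodes GLUT1, had 6.08, 7.03, 5.85 and 6.43 in Ts65Dn arrays 1 to 4 and 5.88, 6.49, 5.93 and 5.57 in WT arrays 1 to 4. The groups overlapped, and array 2 was the highest in each group. Its log2 fold change was 0.38 ± 0.26 (SE, n = 4 each; limma adjusted p = 0.307). Among the 10 genes it was the only one whose fold change lay further from 0 without WT arrays 2 and 3 (0.62), and it was 0.22 level-matched and 0.15 without Ts65Dn array 2.

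**Figure D2:**
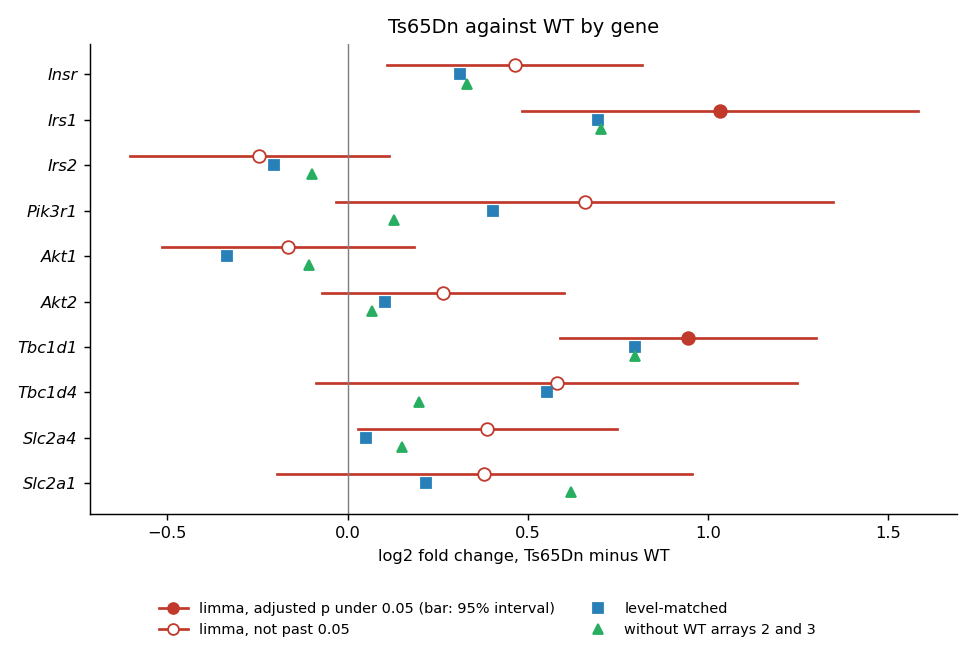
Log2 fold change, Ts65Dn minus WT (horizontal axis), of each of the 10 genes from all 8 arrays (circles, filled where the limma adjusted p is under 0.05, with 95% intervals as bars), level-matched (squares) and without WT arrays 2 and 3 (triangles). Irs1 and Tbc1d1 have filled circles at 1.03 and 0.95, their squares lie at 0.70 and 0.80, and the square of Slc2a4 lies at 0.051.

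The 4 Ts65Dn arrays all lay above the 4 WT arrays for 3 of the 10 genes (Irs1, Tbc1d1 and Slc2a4), as they did for 6.81% of all genes and 12.4% of genes above the median level. They lay all below for 0 of the 10 genes, against 15.9% of all genes and 10.9% of genes above the median level. WT array 3 was the lowest of all 8 arrays for 7 of the 10 genes, and for 33.4% of all genes above the median level. Ts65Dn array 2 was the highest for 4 of the 10 (Insr, Irs1, Slc2a4 and Slc2a1) and the lowest for 2 (Irs2 and Akt1). The part of the narrow WT arrays in these differences was not tested beyond the values given without them.

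Paralogues were set against each other within each array, a comparison added after the values were seen, for 4 pairs with an exact two-sided permutation test over the 70 splits of the arrays. The log2 fold change of Irs1 exceeded that of Irs2 by 1.28, with an exact p of 0.0571 and a Benjamini-Hochberg adjusted p of 0.171. Akt2 exceeded Akt1 by 0.43 (exact p = 0.0857, adjusted p = 0.171), and Tbc1d1 exceeded Tbc1d4 by 0.37 (exact p = 0.286, adjusted p = 0.381). Slc2a4 and Slc2a1 differed by 0.0081 (exact p = 1), with SDs between arrays of 0.336 in Ts65Dn and 0.604 in WT. No pair passed.

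The genes whose values followed a member most closely were found among 9611 genes above the median level, predicted genes (Gm numbers and Rik names) left out, by the mean absolute difference of mean-centred log2 values over the 8 arrays. Fyttd1 (0.127), Cldnd1 (0.128) and Ppp6r3 (0.132) were nearest to Irs1 by that measure. Nearest to Tbc1d1 were Gprc5b (0.0805), Mlxip (0.0960) and Gskip (0.112). Nearest to Slc2a4 were Ahsa1 (0.0360), Ttc4 (0.0518) and Tmem33 (0.0618).

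The rest of the pathway was described by 6 lists that hold 82 other genes, of which 76 were measured. Of these, 4 were called higher (Igf1r, Gsk3b, Stxbp3 and Sort1) and 1 lower (Ptprf), where 2.32% of all genes were called higher and 2.94% lower. Of genes above the median level, where 62 of the 76 lie, 4.26% were called higher and 2.54% lower. At an unadjusted p under 0.05, 25 of the 76 were higher and 8 lower, where 12.3% and 22.6% of all genes were, and 22.4% and 15.3% of genes above the median level. The median log2 fold change over the 76 was 0.25, with 57 positive, and 0.13 level-matched, with 47 positive. As deposited, 39.2% of all genes and 60.7% of genes above the median level were positive. Level-matched, 9989 of all 19938 genes and 5186 of the 9969 above the median level were, with medians of 0.001 and 0.016. The counts of each list below stand beside these shares.

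At the receptor, limma called 1 of 14 genes higher and 1 lower, and 5 were higher and 5 lower at an unadjusted p under 0.05. Igf1r, the receptor for insulin-like growth factor 1, had 4.61, 4.84, 5.02 and 4.90 in Ts65Dn arrays 1 to 4 against 4.02, 4.47, 4.22 and 4.22 in WT arrays 1 to 4. These groups did not overlap, and the log2 fold change was 0.62 (limma adjusted p = 0.0456). It was 0.95 level-matched and 0.73 without WT arrays 2 and 3. Ptprf, a receptor tyrosine phosphatase that can act on the insulin receptor, had 4.17, 4.22, 4.50 and 4.43 in Ts65Dn and 4.85, 4.82, 5.07 and 4.76 in WT, and fell by 0.54 on the log2 scale (limma adjusted p = 0.0466). Its value was -0.28 level-matched and -0.47 without WT arrays 2 and 3, and these groups did not overlap either. The mean levels of Igf1r and Ptprf, 4.54 and 4.60, lay below the median level of all genes. The median of the list was 0.19, and 0.036 level-matched.

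Among 9 genes of phosphatidylinositol 3-kinase and the lipid phosphatases, limma called 0, while 3 were higher and 1 lower at an unadjusted p under 0.05. Pik3ca, a catalytic subunit, had 7.90, 8.57, 7.93 and 7.74 in Ts65Dn against 7.65, 7.08, 6.24 and 7.07 in WT (log2 fold change 1.02, limma adjusted p = 0.0531). Without WT arrays 2 and 3 it was at 0.67, and level-matched at 0.70. For Pik3cd, the catalytic subunit typical of leukocytes, the fold change on the log2 scale was -0.61 (limma adjusted p = 0.0663). Pik3cd was at -0.35 level-matched and at -0.52 without WT arrays 2 and 3. Its mean level, 4.19, lay below the median level of all genes. The list median was 0.24, and 0.053 level-matched.

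In the list of the Akt branch and mTOR, limma called 1 of 19 genes higher and 0 lower, and 7 were higher and 2 lower at an unadjusted p under 0.05. Gsk3b, a kinase that Akt inhibits and that restrains glycogen synthase, had 8.14, 8.56, 7.96 and 7.95 in Ts65Dn arrays 1 to 4. In WT arrays 1 to 4 it had 7.76, 7.14, 6.82 and 7.44, below every Ts65Dn array, and its log2 fold change was 0.86 (limma adjusted p = 0.0475; 0.57 level-matched and 0.55 without WT arrays 2 and 3). Trib3, a pseudokinase that can bind Akt, was at -0.61 on the scale of log2 fold changes (limma adjusted p = 0.0600). Level-matched it was at -0.31, and without WT arrays 2 and 3 at -0.42. Its mean level, 4.55, also lay below the median level of all genes. The list median was 0.27, with 15 of 19 positive, and 0.13 level-matched.

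Of 18 genes of GLUT4 vesicle traffic, 2 were called higher and 0 lower, with 5 higher and 0 lower at an unadjusted p under 0.05. Sort1, the sorting receptor sortilin that helps to form GLUT4 vesicles, had 4.67, 5.79, 5.28 and 5.70 in Ts65Dn and 4.25, 4.73, 4.56 and 4.22 in WT. Ts65Dn array 1 lay within the WT range, and the log2 fold change was 0.92 (limma adjusted p = 0.0498; 1.21 level-matched and 1.13 without WT arrays 2 and 3). Stxbp3, a syntaxin-binding protein of vesicle fusion, had 8.06, 7.87, 8.25 and 7.92 in Ts65Dn against 7.41, 7.45, 7.08 and 7.70 in WT, with no overlap. Its log2 fold change was 0.61 (limma adjusted p = 0.0482), with 0.33 level-matched and 0.47 without WT arrays 2 and 3. The list had 16 of 18 positive values as deposited and 10 of 18 level-matched, with medians of 0.26 and 0.21.

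For AMPK and its upstream kinase, 7 of 8 genes had positive fold changes both as deposited and level-matched, with medians of 0.33 in both. Limma called 0 of the 8, with 3 higher and 0 lower at an unadjusted p under 0.05. Prkaa1, a catalytic subunit, had 7.28, 6.93, 6.79 and 6.86 in Ts65Dn against 6.70, 5.65, 5.92 and 6.73 in WT (log2 fold change 0.71, limma adjusted p = 0.0777). It was at 0.38 level-matched and at 0.25 without WT arrays 2 and 3. Prkab2, a scaffold subunit of muscle AMPK, was at a log2 fold change of 0.40, or 0.050 level-matched (limma adjusted p = 0.0754 as deposited).

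Of 8 genes of other glucose transporters and the first use of glucose, limma called 0, and 2 were higher and 0 lower at an unadjusted p under 0.05. Gys1, muscle glycogen synthase, had 9.31, 9.40, 9.47 and 9.31 in Ts65Dn against 9.22, 8.77, 8.55 and 9.05 in WT. The groups did not overlap, and the log2 fold change was 0.48 (limma adjusted p = 0.0690). It was 0.23 level-matched and 0.24 without WT arrays 2 and 3. Txnip, a restraint on glucose uptake, was at a log2 fold change of 0.47, which did not pass (limma adjusted p = 0.128). It was at 0.30 level-matched and at 0.082 without WT arrays 2 and 3. The list median was 0.089, close to that of genes above the median level.

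**Figure D3:**
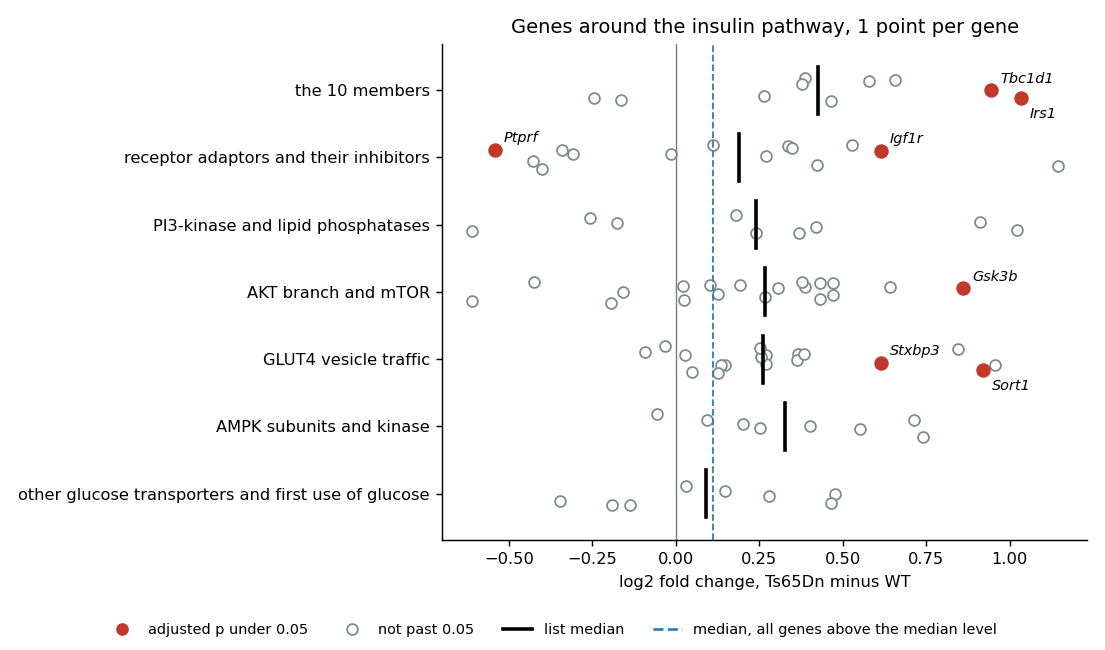
Log2 fold change, Ts65Dn minus WT (horizontal axis), for the 10 genes and the 6 lists of other pathway genes, 1 point per gene, filled red where the limma adjusted p is under 0.05, with a black bar at each median and a dashed line at the median of all genes above the median level (0.11). The 10 genes have a median of 0.43, the AMPK list one of 0.33, and Ptprf is the filled point to the left of 0.

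Soleus holds cells other than fibres. The summed linear signal of 6 endothelial markers was 411 to 533 in Ts65Dn and 238 to 351 in WT, without overlap, and that of 6 macrophage markers, carried by Cd68, was 193 to 767 in Ts65Dn and 127 to 163 in WT. The sum of 5 fibroblast markers was 1414 to 1786 in Ts65Dn and 948 to 1538 in WT, with overlap. Adipocyte markers (6 of 7 measured) summed to 1099.9 to 1428 in Ts65Dn and 1145 to 1404 in WT. The 2 measured red cell markers of 5 summed to 58.0 to 151 in Ts65Dn and 88.1 to 121 in WT. The 2 measured Schwann cell markers of 5 summed to 209 to 266 in Ts65Dn and 141 to 218 in WT. Only 2 of the 6 macrophage markers lay above the median level of all genes, where every measured marker of the other lists lay. The part of these cells in the values of the 10 genes was not tested.

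The calls of Irs1 and Tbc1d1 changed with single arrays. Both were lost without any one Ts65Dn array, without WT array 2 and without WT array 3, with limma adjusted p-values from 0.0770 to 0.115, and both were kept without WT array 1 or 4. Where they were lost, 0 or 1 of all 19938 genes was called higher and 0 lower. Without WT array 1, 1215 genes were called higher and 1650 lower, and without WT array 4, 876 and 1546. Over all leave-outs of a single array the log2 fold change ran from 0.83 to 1.18 for Irs1 and from 0.83 to 1.05 for Tbc1d1. Over all 20 alternatives, Irs1 was called in 5 and Tbc1d1 in 9, and the lowest values were 0.70 and 0.80. Insr was called in 2, and the other 7 genes in 0, where their smallest adjusted p was 0.0670. Among these alternatives, quantile normalization, every probe set adjusted together and the replicate block called 0 of all genes. WT arrays 2 and 3 left out together called 1 gene higher and 0 lower.

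**Figure D4:**
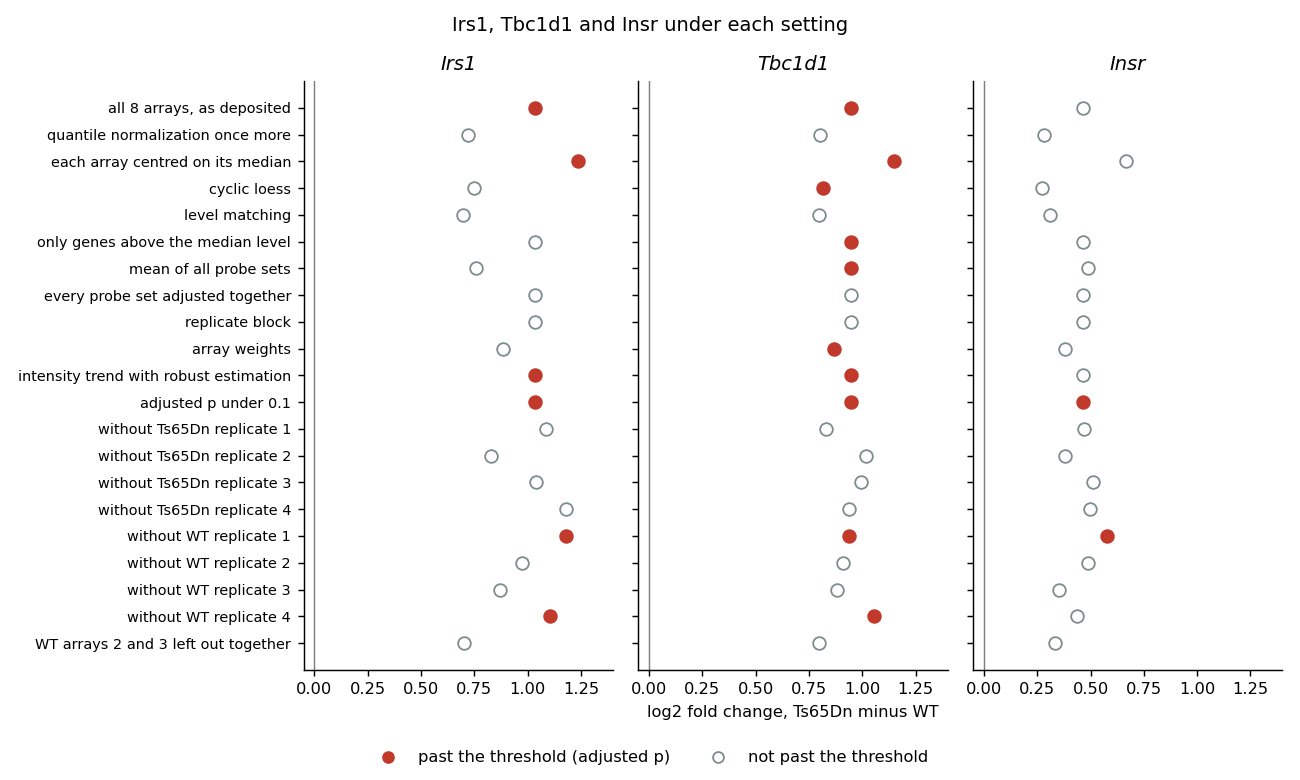
Log2 fold change, Ts65Dn minus WT (horizontal axes), of Irs1, Tbc1d1 and Insr under each setting (rows), filled where the limma adjusted p passed the threshold of that row. Irs1 and Tbc1d1 stay between 0.70 and 1.24 and between 0.80 and 1.15, and most of their points are open.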

How the data were processed

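Gene expression was measured in soleus of 4 Ts65Dn and 4 WT mice, with 1 Affymetrix array per mouse. Per the labels' protocols, column-purified total RNA was amplified into biotinylated cDNA before hybridization. Per the submitters' processing notes, Affymetrix Expression Console 1.1 and RMA gave the gene-level values that the authors deposited. Their scale was taken as log2 from the range of the deposited values. No source used here names the genome build.

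Of 35556 probe sets, 21789 had 1 gene symbol, 1621 several and 12146 none in the platform annotation. Current symbols came from the RefSeq table of GRCm38.p6, matched on Entrez identifiers, for 21698 of the first kind, and 91 kept theirs. The probe set with the highest mean per gene left 19938 genes, which limma 3.58.1 in R 4.3.3 compared (lmFit, eBayes), two-sided, without covariates, with Benjamini-Hochberg adjustment over all genes. The titles call the samples biological replicates. With 4 arrays in a group, their number limits the precision.

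The 10 genes, the lists and the alternatives were chosen with earlier results of these data known, so counts over them are descriptions. Named genes are the 10, the called genes and the 2 of smallest p of each list, and the 3 genes nearest in profile to Irs1, Tbc1d1 and Slc2a4. Alternatives were other scalings (quantile, median centring, cyclic loess, level matching), a level filter, other uses of probe sets, array weights, robust estimation with an intensity trend, the replicate number as a block, a looser threshold and fewer arrays.

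On simulated data for the comparison of Ts65Dn with WT over 19938 genes, with 200 changed, recovery was 63% for a log2 change of 1 and 97% for a log2 change of 2, and 8.05% of calls were false. Python 3.11.15, pandas 2.3.3 and matplotlib 3.10.9 made tables and plots.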

Additional observations from a re-analysis of the deposited data

Results flagged for a closer look

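Slc2a4, which encodes GLUT4, had 8.32 in Ts65Dn array 2, the highest of its group, with a gap of 0.385 to the next array, which was 0.904 of the group's range and above Dixon's 95% critical value for 4 samples. Without that array the log2 fold change was 0.29, against 0.39 with it. It was the only one found among 44 groups of 4 arrays examined (the 10 genes and 12 named pathway genes in each group). Chance gives about 1 in 20, so that 1 among 44 is not more than chance gives.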

How the results depend on the processing

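Direction was kept under all 20 alternatives for the 10 genes, except for Akt1 with each array centred on its median (0.037). The level filter, every probe set adjusted together, the replicate block, the intensity trend and the looser threshold change only p-values or the threshold. The fold changes of the 10 genes are the same under them, so that their direction there was fixed in advance. Centring raised the fold change of every gene by the same amount, so that positive ones could not turn. The mean of all probe sets changes only Insr, Irs1 and Akt2, the members with more than 1 probe set. Leaving out arrays could not turn Irs1, Tbc1d1 or Slc2a4, whose groups did not overlap. The count of the 10 called higher, 2 as deposited, was 0 with quantile normalization, level matching, every probe set adjusted together, the replicate block, and WT arrays 2 and 3 left out, and 1 with cyclic loess, genes above the median level, the mean of all probe sets and array weights. Leaving out single arrays gave 0 to 3. It stayed at 0 for calls lower. The median over the 10 genes was 0.22 with quantile normalization, 0.63 with centring and 0.17 without WT arrays 2 and 3, beside 0.33 to 0.52 without single arrays. Centring moved the median of all genes to 0.10, from -0.10 as deposited.

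Of the other pathway genes, 4 were higher and 1 lower as deposited. Both counts were 0 with quantile normalization, genes above the median level (62 fitted), every probe set together, the replicate block, and without WT arrays 2 and 3. They were 1 and 0 with cyclic loess, level matching and array weights, 8 and 0 with centring, and 16 and 5 at an adjusted p under 0.1. Single arrays left out gave 0 to 10 higher and 0 to 3 lower. Calls over all genes, 462 higher and 587 lower as deposited, were 951 and 57 with centring, 107 and 35 with cyclic loess, 74 and 16 with level matching, 294 and 142 with genes above the median level, 159 and 77 with array weights, and 1754 and 3207 at an adjusted p under 0.1. They were 0 with quantile normalization, every probe set together and the replicate block, where 4369, 6462 and 7014 had an unadjusted p under 0.05. Single arrays left out gave 0 to 1215 higher and 0 to 1650 lower, and WT arrays 2 and 3 left out together 1 and 0. The cause was not tested.

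The labels do not say what arrays of equal number share. Their deviations from the group means correlated at 0.030, 0.012, 0.091 and 0.070 over genes, all positive and under 0.1, and 2 of 4 Ts65Dn arrays correlated best with their own number. With the replicate block, an alternative only, both calls were lost: Tbc1d1 had a limma adjusted p of 0.0530 and Irs1 of 0.0555.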
